A study of Mus musculus with 6 samples.

Results

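Heme transport, synthesis and breakdown was described through 9 genes of the 21686 in the deposited gene table: Slc48a1 and Flvcr1 (transport), Hmox1, Hmox2, Blvra and Blvrb (breakdown), Alas1 and Fech (synthesis), and Bach1 (control by heme). They were chosen by gene name for their roles, but Hmox1 and Slc48a1 were chosen partly for their rise with dexamethasone. Their values are therefore given as a description, with no test, in all 3 comparisons, since each comparison shares libraries with the one used for the choice, and the counts of called genes given with each comparison are over the other genes. All 9 genes had counts in all 6 libraries and passed the filter on low counts in every comparison.

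The cells were MC3T3-E1 Subclone 14, a single mouse osteoblast precursor line, kept for 72 h in 1 of 3 conditions with 2 libraries each. The control cells received 100 µL of PBS, the dexamethasone cells received 10 µM of this synthetic glucocorticoid, and the dexamethasone + EPC-EVs cells received 10 µM of dexamethasone with 100 µg of extracellular vesicles from endothelial progenitor cells. Cell line and duration are those of the sample labels, while the series text names fibroblasts and another duration. The study compared the groups to learn how glucocorticoid damage to osteoblasts and its treatment with vesicles appear in the transcriptome. The methods describe the libraries of a group as biological replicates and do not say whether they came from separate cultures. The p-values therefore rest on the spread between libraries, estimated in part over all genes tested, and may not cover the spread between cultures.

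Heme is an iron-bearing ring made in a chain of steps that begins and ends in the mitochondrion, with ALAS1 catalysing the first and rate-limiting step in most cells and FECH inserting the iron at the last. SLC48A1 (HRG1) carries heme out of lysosomes into the cytosol, and FLVCR1 is a membrane transporter long studied as a heme exporter. Heme oxygenases open the ring to biliverdin, iron and carbon monoxide. HMOX1 is the inducible form and HMOX2 the constitutive one. Biliverdin reductases turn biliverdin into bilirubin: BLVRA acts on the adult biliverdin isomer, and BLVRB, also a flavin reductase, on the fetal one. BACH1 is a repressor that heme itself inactivates. It sits on antioxidant response elements, which the activator NRF2 (Nfe2l2) also uses, and Hmox1 is its classic target.

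The libraries held 5146760 to 6583735 counts in the control and dexamethasone groups and 12864009 and 13182014 in the dexamethasone + EPC-EVs group, so 3 counts corresponded to between 0.228 and 0.583 CPM (counts scaled to a common library total). Mitochondrially encoded genes took 7.46% and 8.62% of the control counts, 5.55% and 5.78% of the dexamethasone counts, and 0.465% and 0.727% of the dexamethasone + EPC-EVs counts. Depth and mitochondrial share thus moved together with the vesicle group, and their part in the results was not tested. With mitochondrially encoded genes left out, all calls named here among the 7 genes not chosen for a rise stayed. That setting removes those rows only, so it does not test the difference in mitochondrial share. Of 10 osteoblast markers, Col1a1 lay between 2205 and 8770 CPM and Runx2 between 152.3 and 202.3 CPM in the libraries, whereas Alpl reached 3.18 CPM at most and Bglap 6.57. The 10 summed to 15825 and 17385 CPM in control, 17005 and 17455 in dexamethasone, and 29231 and 23388 in dexamethasone + EPC-EVs. They went both ways between the treated groups, where Col1a1 (1.51), Col1a2 (1.89) and Sparc (1.25) were called higher and Spp1 (-1.06, adjusted p = 0.000155) lower on the log2 scale. The 7 glucocorticoid response genes summed to 521.5 and 448.9 CPM in control, 424.4 and 436.1 in dexamethasone, and 778.1 and 1144 in dexamethasone + EPC-EVs. The dexamethasone libraries were thus no higher than control in the sum of the list that checks the treatment. In dexamethasone + EPC-EVs against dexamethasone, Dusp1 (2.21), Tsc22d3 (2.4), Sgk1 (0.75) and Fkbp5 (0.73) were called higher on the log2 scale. Per1 (0.08) and Klf9 (-0.19) were not called, and Zbtb16 reached 0.652 CPM at most. Of 10 erythroid markers, 3 had a row, and their sum lay between 0.163 and 4.51 CPM. Alas2, the erythroid synthesis enzyme, and the globins had no row, Gata1 was at 0 in 5 of 6 libraries, and outside the first control library Epor gave most of the sum. Macrophage markers, 5 of 10 with a row, summed to 442.4 and 603.3 CPM in control, 319.7 and 370.0 in dexamethasone, and 171.1 and 167.0 in dexamethasone + EPC-EVs, most of it Vcam1 (152.1 and 112.9 CPM in the last group). Csf1r was at 37.0 CPM in the second dexamethasone + EPC-EVs library and at 4.44 or less in the other 5. Endothelial markers, 6 of 8 with a row, summed to between 242.6 and 416.3 CPM, nearly all of it Cd34, and were lowest in the vesicle group. Adipocyte markers, 4 of 6 with a row, summed to 0.157 to 9.9 CPM. What part these markers had in the results was not tested.

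The promoters of Blvra, Blvrb and Bach1 are shown because their genes, not chosen for a rise, passed the test in a comparison with the vesicle group. The windows are the 250 bases before a RefSeq transcription start on GRCm38.p6, written 5′ to 3′ along the gene's strand, with the antioxidant response element core (TGACNNNGC on either strand) and the GC box (GGGCGG on either strand) in capitals. RefSeq windows were used for 6 of the 9 genes, namely Flvcr1, Blvra, Blvrb, Alas1, Hmox2 and Bach1, and none for Hmox1, Slc48a1 or Fech.
Blvra, chr2:127070407-127070656, plus strand: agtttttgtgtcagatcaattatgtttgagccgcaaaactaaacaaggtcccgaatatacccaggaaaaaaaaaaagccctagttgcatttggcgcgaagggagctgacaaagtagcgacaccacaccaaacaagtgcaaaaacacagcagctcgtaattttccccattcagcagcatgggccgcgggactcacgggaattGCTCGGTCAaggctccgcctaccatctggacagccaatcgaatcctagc
Blvrb, chr7:27447728-27447977, plus strand: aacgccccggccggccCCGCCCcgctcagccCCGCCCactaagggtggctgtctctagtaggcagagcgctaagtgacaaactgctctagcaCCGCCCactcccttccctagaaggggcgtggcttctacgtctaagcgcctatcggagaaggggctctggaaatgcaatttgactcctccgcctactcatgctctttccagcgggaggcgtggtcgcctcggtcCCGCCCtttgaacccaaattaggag
Bach1, chr16:87698704-87698953, plus strand: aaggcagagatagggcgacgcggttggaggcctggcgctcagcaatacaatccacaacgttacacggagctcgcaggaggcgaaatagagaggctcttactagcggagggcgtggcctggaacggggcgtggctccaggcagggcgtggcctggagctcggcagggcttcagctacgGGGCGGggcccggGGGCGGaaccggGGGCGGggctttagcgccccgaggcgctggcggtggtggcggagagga

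The Blvra window held 1 core, beginning 49 bases before the start, written on the opposite strand. The Blvrb window shown held 4 GC boxes and the Bach1 window 3, and neither held the core. RefSeq gives Blvrb a second start, whose window (chr7:27452168-27452417) held none of the motifs searched. Of the 10 windows of the 6 genes, 2 held the core, those of Blvra and Flvcr1, where it overlaps a GC box, against 10.2% of all 32851 windows. The E-box CACGTG was in 0 of the 10 windows (6.02% of all), the AP-1 site TGANTCA in 0 (6.75% of all), the glucocorticoid half-site AGAACA in 1, a window of Hmox2 (16.1% of all), and the GC box in 5 (32.7% of all). These matches describe the letters of the windows only.

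Slc48a1, the lysosomal heme transporter (ENSMUSG00000081534.2, chr15:97778520-97792692, plus strand, GRCm38), was the transporter with the higher level. It measured 83.7 and 66.1 CPM in control, 197.7 and 189.5 CPM in dexamethasone, and 230.7 and 187.9 CPM in dexamethasone + EPC-EVs. Both treated groups lay above control without overlap, and the treated groups overlapped each other. The group means were 74.9 ± 12.5, 193.6 ± 5.82 and 209.3 ± 30.3 CPM (SD, n = 2 in each group). The log2 fold change was 1.36 ± 0.182 (SE) in dexamethasone against control, 1.43 ± 0.213 in dexamethasone + EPC-EVs against control, and 0.07 ± 0.141 between the treated groups. Slc48a1 has the highest GC content of the 9 genes (56.1%), and its values moved when a trend on GC content and gene length was taken out of each library: the 3 values became 1.05, 0.51 and -0.52. The difference between the treated groups thus changed sign with that correction. The exons of Slc48a1 share 29 of 2751 bases (1.1%) with Hdac7 on the opposite strand. Hdac7 measured 78.7 and 61.5 CPM in control, 112.2 and 114.8 in dexamethasone, and 208.9 and 190.0 in dexamethasone + EPC-EVs. It was called higher in the vesicle group against dexamethasone (0.77 ± 0.135, adjusted p = 0.000935) and against control (1.46 ± 0.205, adjusted p = 0.00132), while its difference of 0.69 ± 0.194 in dexamethasone against control did not pass (adjusted p = 0.291).

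Flvcr1 (ENSMUSG00000066595.9, chr1:191005847-191026158, minus strand), the other transporter, was lowest in dexamethasone. Its libraries measured 30.5 and 30.3 CPM in control, 25.0 and 21.6 CPM in dexamethasone, and 31.7 and 35.4 CPM in dexamethasone + EPC-EVs. The dexamethasone libraries lay below all others, but no comparison passed the test: the log2 fold change was -0.39 ± 0.281 against control (adjusted p = 0.647, quasi-likelihood test of edgeR, adjusted by Benjamini-Hochberg over the genes tested, as for every adjusted p here). It was 0.48 ± 0.227 in dexamethasone + EPC-EVs against dexamethasone (adjusted p = 0.116) and 0.10 ± 0.258 against control (adjusted p = 0.802). With the GC and length trend taken out, the first of these last values became 0.68 (adjusted p = 0.040). Per length, in the deposited FPKM, Slc48a1 was at 5.29 and 4.2 times Flvcr1 in the control libraries, 15.2 and 16.8 times in dexamethasone, and 14.0 and 10.2 times in dexamethasone + EPC-EVs.

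**Figure D1:**
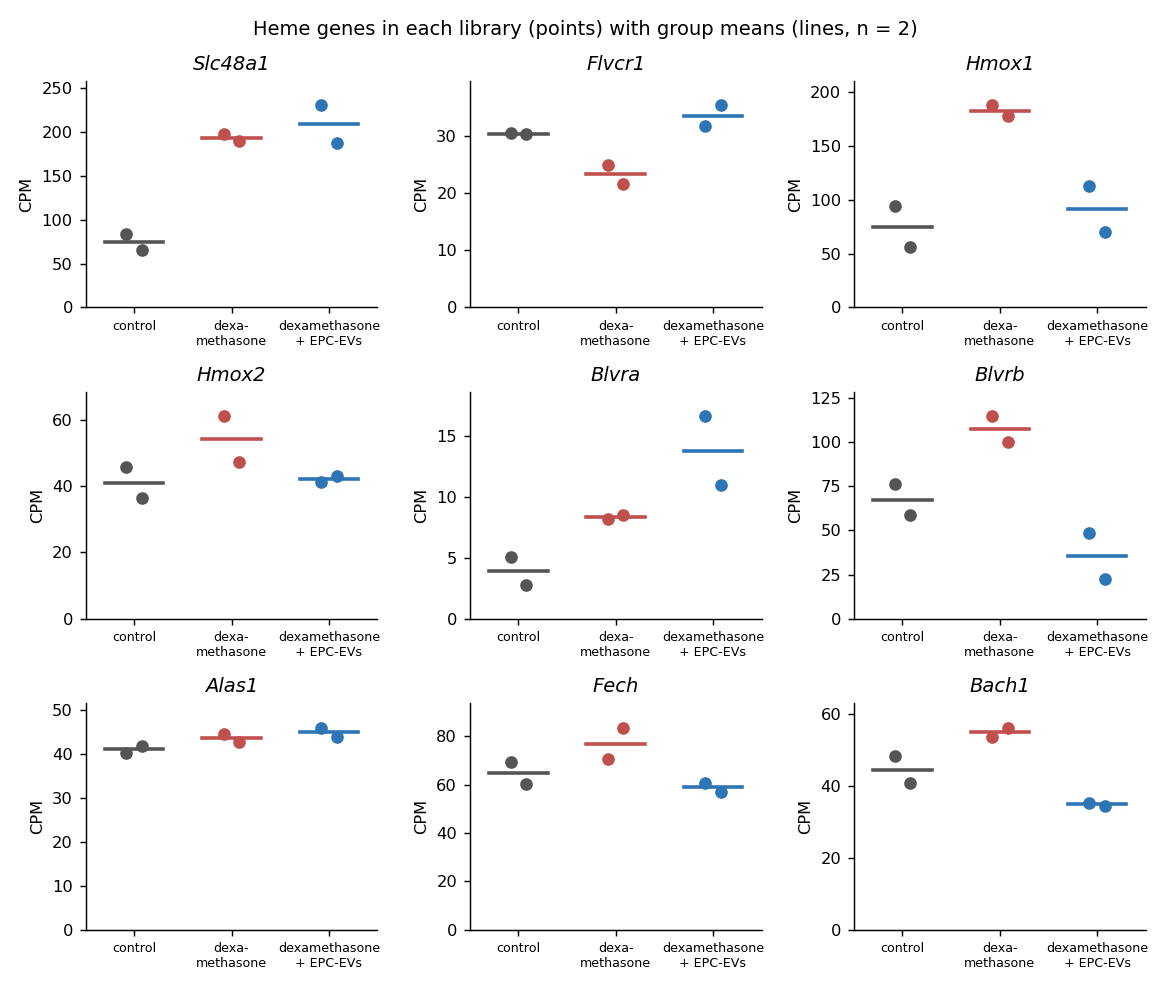
Level of each of the 9 heme genes in CPM (vertical axis, from 0) in the 3 groups (horizontal axis), with 1 point for each library and a line at the mean of the 2 libraries. Slc48a1 is high in both treated groups, Hmox1 (177.4 and 187.7 CPM) and Blvrb are highest in dexamethasone, and Alas1 lies between 40.2 and 45.9 CPM throughout.

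Hmox1, the inducible heme oxygenase (ENSMUSG00000005413.8, chr8:75093621-75100589, plus strand), was highest in the dexamethasone group. It measured 94.1 and 56.1 CPM in control, 187.7 and 177.4 CPM in dexamethasone, and 113.0 and 69.8 CPM in dexamethasone + EPC-EVs. Both dexamethasone libraries lay above all 4 others, and the control and dexamethasone + EPC-EVs libraries overlapped. The means were 75.1 ± 26.9, 182.5 ± 7.25 and 91.4 ± 30.6 CPM (SD, n = 2 in each group). The log2 fold change was 1.27 ± 0.230 in dexamethasone against control, -1.04 ± 0.199 in dexamethasone + EPC-EVs against dexamethasone, and 0.23 ± 0.312 in dexamethasone + EPC-EVs against control. The last value lay between -0.14 and 0.70 when single libraries were left out. Because the dexamethasone libraries took part in the choice of Hmox1, the second value is a description as well.

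Hmox2, the constitutive heme oxygenase (ENSMUSG00000004070.15, chr16:4726361-4766742, plus strand), measured 45.8 and 36.4 CPM in control, 61.1 and 47.3 CPM in dexamethasone, and 41.2 and 43.0 CPM in dexamethasone + EPC-EVs. The dexamethasone libraries were above the 4 others. No comparison passed the test, with log2 fold changes of 0.39 ± 0.246 in dexamethasone against control (adjusted p = 0.588), -0.41 ± 0.199 between the treated groups (adjusted p = 0.123) and -0.01 ± 0.246 in dexamethasone + EPC-EVs against control (adjusted p = 0.969). Hmox2 shares 892 of 2217 exonic bases (40.2%) with Cdip1 on the opposite strand. The authors ran HISAT2 with a strand-specific setting (RF). How HTSeq treated strand is not given in the sources used here, so reads of the shared stretch may not have been told apart. Cdip1 itself passed the test between the treated groups, opposite in sign to the Hmox2 value (log2 fold change 1.01 ± 0.234, adjusted p = 0.00512). Cdip1 passed in the vesicle group against control too (1.48 ± 0.419, adjusted p = 0.0249), where Hmox2 stood at -0.01. Per length, Hmox1 was at 2.6 and 1.95 times Hmox2 in control, 3.89 and 4.75 times in dexamethasone, and 3.47 and 2.05 times in dexamethasone + EPC-EVs.

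Of the biliverdin reductases, Blvra passed the test in dexamethasone + EPC-EVs against control and Blvrb between the treated groups, and neither passed in both. Blvra (ENSMUSG00000001999.15, chr2:127070665-127097084, plus strand) had few reads, 31 and 14 counts in control, 56 and 58 in dexamethasone, and 210 and 140 in dexamethasone + EPC-EVs, or 5.05 and 2.79, 8.15 and 8.54, and 16.6 and 11.0 CPM. The 3 groups did not overlap. Blvra rose in dexamethasone + EPC-EVs against control by 1.76 ± 0.513 on the log2 scale (adjusted p = 0.0281). This call was lost without the second control library (1.42, adjusted p = 0.0528) and without the first dexamethasone + EPC-EVs library (1.44, adjusted p = 0.268). The differences of 1.07 ± 0.590 in dexamethasone against control (adjusted p = 0.530) and 0.68 ± 0.366 between the treated groups (adjusted p = 0.163) did not pass.

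Blvrb (ENSMUSG00000040466.16, chr7:27447978-27466144, plus strand) measured 76.1 and 58.7 CPM in control, 114.7 and 100.0 CPM in dexamethasone, and 48.4 and 22.3 CPM in dexamethasone + EPC-EVs. No 2 groups overlapped, with the dexamethasone libraries the highest and the vesicle libraries the lowest. Blvrb fell in dexamethasone + EPC-EVs against dexamethasone by 1.65 ± 0.298 on the log2 scale (adjusted p = 0.00163), or 3.14-fold. The difference of 0.66 ± 0.203 in dexamethasone against control did not pass (adjusted p = 0.330), although it did without the first control library (0.87, adjusted p = 0.00124). Neither did that of -0.98 ± 0.359 in dexamethasone + EPC-EVs against control (adjusted p = 0.0627). The last value was called without the first dexamethasone + EPC-EVs library (-1.63, adjusted p = 0.00108) and with the GC and length trend taken out (-1.62, adjusted p = 0.00776). DESeq2 also called it (-0.97, adjusted p = 0.0338). Per length, Blvrb was at 13.2 and 18.5 times Blvra in control, 12.4 and 10.3 times in dexamethasone, and 2.56 and 1.78 times in dexamethasone + EPC-EVs, so that the vesicle libraries lay apart from the other 4.

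**Figure D2:**
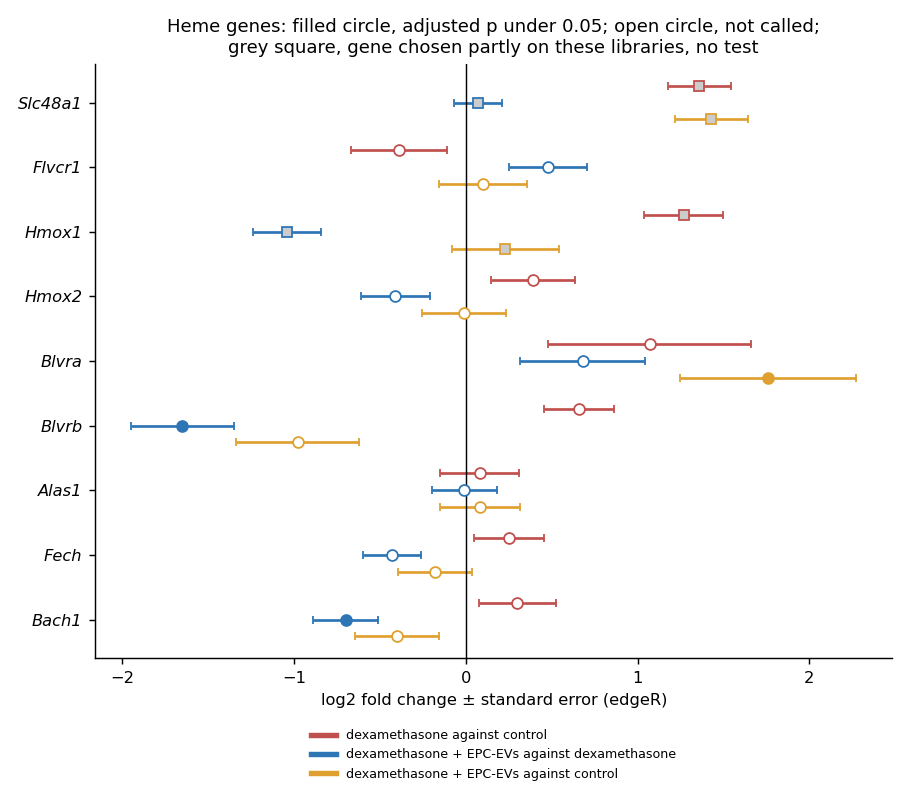
Log2 fold change of the 9 heme genes (horizontal axis, with the standard error as bars) in the 3 comparisons, marked by colour. Filled circles passed the test, open circles did not, and grey squares are the genes chosen partly on these libraries: Blvrb (-1.65) and Bach1 (-0.70) fell between the treated groups, and Blvra (1.76) rose from control to dexamethasone + EPC-EVs.

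Alas1, the first enzyme of the chain, varied little. It (ENSMUSG00000032786.16, chr9:106233455-106248654, minus strand) measured 40.2 and 41.8 CPM in control, 44.5 and 42.7 CPM in dexamethasone, and 45.9 and 43.7 CPM in dexamethasone + EPC-EVs, so that the highest library was 1.14 times the lowest, the narrowest range of the 9 genes. Its log2 fold changes were 0.08 ± 0.232 (adjusted p = 0.930) in dexamethasone against control, -0.01 ± 0.189 (adjusted p = 0.978) between the treated groups and 0.08 ± 0.233 (adjusted p = 0.821) in dexamethasone + EPC-EVs against control. With the GC and length trend taken out, the 3 values became -0.11 (adjusted p = 0.930), -0.37 (adjusted p = 0.155) and -0.48 (adjusted p = 0.157). The antisense gene that overlaps 7.5% of the Alas1 exonic bases had 6 counts at most in a library, and the one that overlaps 15.6% of those of Flvcr1 had 5.

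Fech (ENSMUSG00000024588.8, chr18:64452914-64490251, minus strand) measured 69.2 and 60.1 CPM in control, 70.5 and 83.6 CPM in dexamethasone, and 60.6 and 57.1 CPM in dexamethasone + EPC-EVs. The dexamethasone libraries lay above the 4 others, which overlapped. The log2 fold change between the treated groups was -0.43 ± 0.170 (adjusted p = 0.062). It was called with upper-quartile normalisation (-0.48, adjusted p = 0.0422) and with the GC and length trend taken out (-0.66, adjusted p = 0.0126). The values of 0.25 ± 0.205 in dexamethasone against control (adjusted p = 0.700) and -0.18 ± 0.214 in dexamethasone + EPC-EVs against control (adjusted p = 0.533) did not pass.

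Bach1, the heme-sensing repressor (ENSMUSG00000025612.5, chr16:87698945-87733346, plus strand), was lowest in the vesicle group. It measured 48.2 and 40.8 CPM in control, 53.7 and 56.2 CPM in dexamethasone, and 35.3 and 34.5 CPM in dexamethasone + EPC-EVs. No 2 groups overlapped. Bach1 fell in dexamethasone + EPC-EVs against dexamethasone by 0.70 ± 0.188 on the log2 scale (adjusted p = 0.0117), or 1.62-fold. The call was lost without the first dexamethasone library (-0.72, adjusted p = 0.0524) or the second (-0.67, adjusted p = 0.0721), with the size nearly the same. The differences of 0.30 ± 0.224 in dexamethasone against control (adjusted p = 0.663) and -0.40 ± 0.244 in dexamethasone + EPC-EVs against control (adjusted p = 0.232) did not pass. In bulk RNA, fewer cells that express a gene and less of its RNA per cell cannot be told apart.

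Counted together, few of the 7 genes not chosen for a rise passed the test in any comparison. In dexamethasone against control, 0 were called higher and 0 lower by edgeR, against 0.0155% and 0.0388% of 12879 genes tested. DESeq2 called 0 as well and gave no adjusted p for Blvra and Flvcr1. DESeq2 called 0.853% higher and 1.85% lower of the 4807 genes to which it gave an adjusted p. Blvrb was the 1 gene of the 7 that had an unadjusted p under 0.05 with edgeR, beside 10.9% of all genes. The libraries of the groups did not overlap for any of the 7, with 6 higher and 1 lower, where 22.8% and 21.2% of all genes lay apart in those directions. The median log2 fold change was 0.30, against 0.007 over all genes.

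In dexamethasone + EPC-EVs against dexamethasone, 0 of the 7 were called higher and 2 lower (Blvrb and Bach1), beside 20.9% and 18.9% of 13556 genes tested. DESeq2 called the same number, beside 17.1% and 16.3% of all genes, and 3 had an unadjusted p under 0.05, beside 48.4%. Without either dexamethasone library Blvrb stayed called and Bach1 did not, and the share of all genes called lower also fell. The libraries lay apart for 2 higher and 4 lower genes, where 38.5% and 34.0% of all genes did, and the median was -0.41 against 0.012. In dexamethasone + EPC-EVs against control, 1 was called higher (Blvra) and 0 lower, beside 19.1% and 17.2% of 13511 genes tested. DESeq2 called 1 in each direction, Blvrb being the lower one, beside 17.5% and 16.4% of all genes, and 2 had an unadjusted p under 0.05 with edgeR, beside 46.7%. The libraries lay apart for 3 higher and 2 lower genes, where 39.1% and 33.9% of all genes did, and the median was -0.01 against 0.021. The counts of called genes were near these shares of all genes and are no result about the heme genes.

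The order of the 9 genes per length also differed between groups. In FPKM, Hmox1 (42.6 ± 16.0, SD, n = 2), Slc48a1 (27.6 ± 5.1), Blvrb (24.0 ± 4.8), Fech (22.1 ± 2.61) and Hmox2 (18.4 ± 3.29) were the 5 highest in control. The libraries of Hmox1 and Slc48a1 were apart by a narrow margin (31.3 against 31.2), and those of every later neighbouring pair of the 5 overlapped. In dexamethasone, Hmox1 (108.2 ± 5.06), Slc48a1 (74.7 ± 2.77) and Blvrb (40.1 ± 4.17) led without overlap, followed by Fech (27.6 ± 3.14) and Hmox2 (25.4 ± 4.78), which overlapped. In dexamethasone + EPC-EVs, Slc48a1 (75.8 ± 11.8) came first, Hmox1 (50.9 ± 17.6) second without overlap, and Blvrb (12.4 ± 6.6) was below Fech (19.8 ± 1.03) and Hmox2 (18.5 ± 0.366) without overlap. The other 4 genes lay under 10 FPKM in every library. Blvra was lowest in control (1.59 ± 0.676) and in dexamethasone (3.54 ± 0.0912). In dexamethasone + EPC-EVs, Blvra (5.51 ± 1.65) overlapped Bach1 (5.51 ± 0.148) and Flvcr1 (6.31 ± 0.426).

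The enzymes of heme synthesis, Alas1 and Fech included, are a list of 9, of which 8 were tested. In dexamethasone against control 0 were called by edgeR, with 2 at an unadjusted p under 0.05 (10.9% of all genes). DESeq2 called 1 lower, beside 1.85% of all genes with an adjusted p, and the median log2 fold change was 0.12. Between the treated groups 0 were higher and 1 lower (median 0.24), beside 20.9% and 18.9% of all genes, and in dexamethasone + EPC-EVs against control 1 was higher and 1 lower (median 0.19), beside 19.1% and 17.2%. The last median became 0.53 without the first control library and -0.05 without the first dexamethasone + EPC-EVs library. With the GC and length trend taken out it became -0.27. The same setting turned the median to -0.08 between the treated groups and in dexamethasone against control. The gene that fell in both vesicle comparisons was Cpox, coproporphyrinogen oxidase, which makes protoporphyrinogen in the mitochondrion. It measured 123.1 and 187.3 CPM in control, 64.9 and 91.4 CPM in dexamethasone, and 20.3 and 19.9 CPM in dexamethasone + EPC-EVs. The 3 groups did not overlap. Cpox fell by 2.00 ± 0.217 on the log2 scale between the treated groups (adjusted p = 3.6e-05) and by 3.00 ± 0.264 in dexamethasone + EPC-EVs against control (adjusted p = 0.000284), while its difference in dexamethasone against control was -1.0 ± 0.242 (adjusted p = 0.279). Ppox, the oxidase of the next step, was called higher in dexamethasone + EPC-EVs than in control (0.76 ± 0.235, adjusted p = 0.0343). That call was lost without either dexamethasone + EPC-EVs library (adjusted p = 0.243 and 0.112) and with the GC and length trend taken out (0.19, adjusted p = 0.577).

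**Figure D3:**
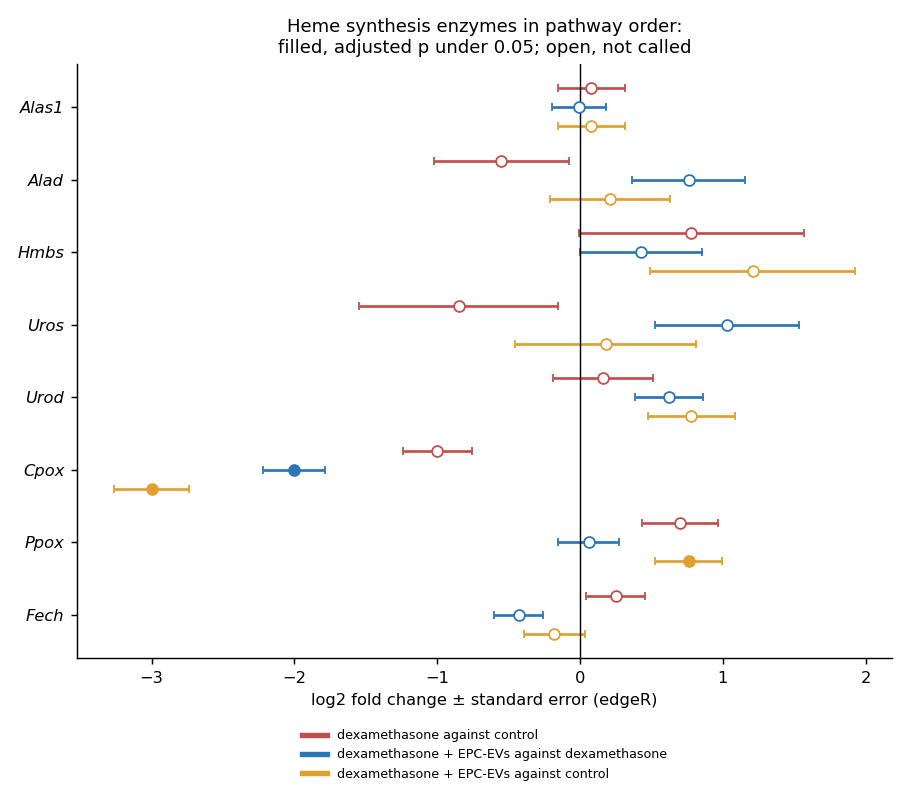
Log2 fold change of 8 heme synthesis enzymes in the order of their steps (horizontal axis, with the standard error as bars) in the 3 comparisons, marked by colour. Filled circles passed the test and open circles did not: Cpox (-2.00 and -3.00) and Ppox (0.76) are the filled ones, and Alas1 lies near 0 throughout.

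Of 12 genes that carry substrates, iron or porphyrins into mitochondria or mature heme there, 11 were tested. The list had 0 calls in dexamethasone against control by edgeR and by DESeq2, which gave no adjusted p for 10 of the 12, with 1 gene at an unadjusted p under 0.05 and a median of -0.05. It had 2 higher and 1 lower between the treated groups (median 0.20), beside 20.9% and 18.9% of all genes, and 3 higher and 1 lower in dexamethasone + EPC-EVs against control (median 0.19), beside 19.1% and 17.2%. The last median became -0.02 without the first control library and 0.48 without the second. Tmem14c, a porphyrin transporter of the inner membrane, measured 3.91 and 6.77 CPM in control, 7.13 and 5.01 CPM in dexamethasone, and 34.5 and 36.0 CPM in dexamethasone + EPC-EVs, a rise of 2.49 ± 0.292 between the treated groups (adjusted p = 6.22e-05). Abcb10, an inner-membrane transporter, rose by 0.92 ± 0.304 in the same comparison (adjusted p = 0.032), a call lost with DESeq2 (adjusted p = 0.0523), with all 6 libraries in 1 fit (adjusted p = 0.0971), with the GC and length trend taken out (0.52, adjusted p = 0.211), and without the second dexamethasone library (0.63, adjusted p = 0.191) or the second dexamethasone + EPC-EVs library (0.74, adjusted p = 0.169). In dexamethasone + EPC-EVs against control, Abcb10 rose by 2.1 ± 0.421 (adjusted p = 0.00578), a call that DESeq2, the single fit and the trend removal kept. Slc25a37, mitoferrin 1, the mitochondrial iron importer, fell by 0.91 ± 0.147 between the treated groups (adjusted p = 0.000536). Slc25a38, a mitochondrial glycine carrier, was called higher in dexamethasone + EPC-EVs against control (1.51 ± 0.501, adjusted p = 0.0445). This call was lost with upper-quartile normalisation (adjusted p = 0.0514), DESeq2 (adjusted p = 0.0756), the replicate number as a block (adjusted p = 0.0688), the trend taken out (0.59, adjusted p = 0.434) and without either dexamethasone + EPC-EVs library (adjusted p = 0.238 and 0.300). Members of the list thus went both ways.

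Of 8 genes of heme transport and uptake besides Slc48a1, 5 were tested. In dexamethasone against control 0 were called by edgeR, 0 by DESeq2, which gave no adjusted p for 5, and 0 had an unadjusted p under 0.05 (median 0.08). Between the treated groups 2 were higher and 0 lower (median 0.79), beside 20.9% and 18.9% of all genes, and in dexamethasone + EPC-EVs against control 2 were higher and 0 lower (median 0.87), beside 19.1% and 17.2%. With the GC and length trend taken out, these became 3 higher and 1 lower, and 2 higher and 1 lower, the lower one being Lrp1, the receptor for heme bound to hemopexin, and the added one Flvcr1. Abcg2, an exporter of porphyrins among other substrates, measured 33.6 and 39.0 CPM in control, 36.5 and 40.3 CPM in dexamethasone, and 72.5 and 65.1 CPM in dexamethasone + EPC-EVs. It rose by 0.79 ± 0.183 between the treated groups (adjusted p = 0.0051). Against control the Abcg2 call was lost without either dexamethasone + EPC-EVs library (0.81, adjusted p = 0.127, and 0.96, adjusted p = 0.0526), which left 1 of the 2 calls. Abcc5, also described as a heme exporter, rose by 0.88 ± 0.154 (adjusted p = 0.000903). Of the 4 breakdown genes besides Hmox1, 0 were called by edgeR or by DESeq2 in dexamethasone against control, with 1 at an unadjusted p under 0.05 (median 0.53), and DESeq2 gave no adjusted p for 1. Without the first control library 2 were called higher, beside 9.25% of all genes, and the median was 0.87. There was 1 higher and 1 lower between the treated groups (median 0.05), beside 20.9% and 18.9% of all genes, and in dexamethasone + EPC-EVs against control 1 was higher and 0 lower (median 0.36), beside 19.1% and 17.2%. The latter median was 0.81 without the first control library and 0.09 without the second. It was 0.29 without the first dexamethasone + EPC-EVs library and 0.46 without the second. With the GC and length trend taken out, the medians between the treated groups and against control became -0.38 and -0.28. The gene called higher between the treated groups was Por, the reductase that feeds electrons to both heme oxygenases (0.52 ± 0.161, adjusted p = 0.0236). The Por call was lost with all 6 libraries in 1 fit (adjusted p = 0.179), without either dexamethasone library (adjusted p = 0.119 and 0.154) and without the first dexamethasone + EPC-EVs library (0.32, adjusted p = 0.145), and the value turned to -0.22 (adjusted p = 0.305) with the GC and length trend taken out.

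The regulators of the axis are 6 genes, Bach1 included, and all were tested. In dexamethasone against control 0 were called by edgeR or by DESeq2, which gave no adjusted p for 3, with 2 at an unadjusted p under 0.05 (median 0.39). Between the treated groups 2 were higher and 2 lower, Bach1 and Nfe2l2 (median 0.22), beside 20.9% and 18.9% of all genes, and in dexamethasone + EPC-EVs against control 2 were higher and 1 lower (median 0.32), beside 19.1% and 17.2%. With the GC and length trend taken out, the medians turned to -0.42 and -0.32, and the call of Keap1 against control was lost (0.65, adjusted p = 0.0908). Without either dexamethasone library the call of Bach1 was lost, and the share of all genes called lower also fell. Nfe2l2, the activator NRF2, measured 368.6 and 366.9 CPM in control, 285.3 and 299.4 CPM in dexamethasone, and 112.8 and 119.7 CPM in dexamethasone + EPC-EVs, with no overlap. It fell by 1.38 ± 0.130 between the treated groups (adjusted p = 1.42e-05). Keap1, which targets NRF2 for degradation, rose by 1.28 ± 0.197 (adjusted p = 0.000399). Mafg, a small partner protein of both BACH1 and NRF2, rose by 0.96 ± 0.158 (adjusted p = 0.000613).

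Of 9 genes known as targets of the axis besides Hmox1 and Slc48a1, 8 were tested in dexamethasone against control, where 0 were called by edgeR, 6 had an unadjusted p under 0.05 (10.9% of all genes) and DESeq2 called 4 higher (0.853% of all genes with an adjusted p). The median was 1.05. Leaving out 1 library moved the edgeR count to 6 without the first control library, 4 without the second or 1 without the second dexamethasone library, where 9.25%, 0.358% and 0.0661% of all genes were called higher. Between the treated groups 1 of 9 was higher and 5 lower (median -0.79), beside 20.9% and 18.9% of all genes. In dexamethasone + EPC-EVs against control 1 was higher and 2 lower (median 0.17), beside 19.1% and 17.2% of all genes. Of the 2, the call of Txnrd1 was lost without either dexamethasone + EPC-EVs library. These comparisons share the dexamethasone or the control libraries, so their values are not independent of each other. Nqo1, a quinone reductase, was at 56.5 and 48.6 CPM in control, 117.8 and 113.7 CPM in dexamethasone, and 77.5 and 38.2 CPM in dexamethasone + EPC-EVs, high in the same libraries as Hmox1. It fell between the treated groups by 1.05 ± 0.267 (adjusted p = 0.0102), and its difference in dexamethasone against control was 1.13 ± 0.192 (adjusted p = 0.101). Slc7a11, the cystine importer, fell between the treated groups by 2.07 ± 0.480 (adjusted p = 0.00523), Txnrd1, thioredoxin reductase, by 0.95 ± 0.132 (adjusted p = 0.000202), and Gclm, a subunit of the enzyme of glutathione synthesis, by 0.79 ± 0.223 (adjusted p = 0.0154). The calls of Nqo1 and Gclm were lost without either dexamethasone library, that of Slc7a11 without the first, and that of Gclm also without the second dexamethasone + EPC-EVs library and with the GC and length trend taken out (-0.27, adjusted p = 0.388). The ferritin chains, which store the iron that heme breakdown frees, went apart. Fth1 was at 4011 and 4453 CPM in control, 4896 and 5157 CPM in dexamethasone, and 1750 and 1761 CPM in dexamethasone + EPC-EVs, and fell between the treated groups by 1.56 ± 0.106 (adjusted p = 1.7e-06). Ftl1 was at 151.0 and 93.8 CPM in control, 290.6 and 278.1 CPM in dexamethasone, and 717.2 and 586.1 CPM in dexamethasone + EPC-EVs, and rose by 1.15 ± 0.132 (adjusted p = 5.21e-05).

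**Figure D4:**
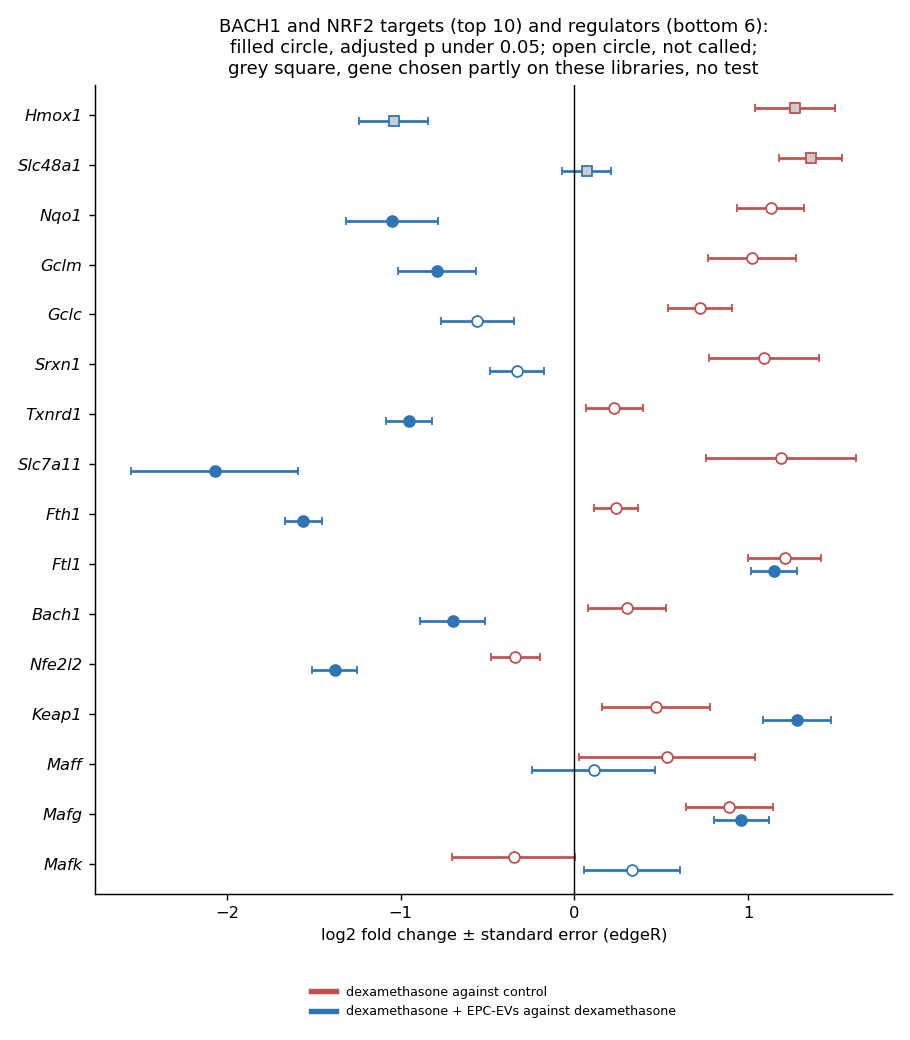
Log2 fold change (horizontal axis, with the standard error as bars) of 10 targets and 6 regulators of the BACH1 and NRF2 axis in dexamethasone against control (red) and in dexamethasone + EPC-EVs against dexamethasone (blue). All 10 targets lie right of 0 in red, where none of the 8 circles is filled and Hmox1 and Slc48a1 are grey squares without a test, and in blue Ftl1 (1.15) is the filled target to the right. Both comparisons share the dexamethasone libraries.

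Among 13 enzymes that carry heme, 10 were tested. In dexamethasone against control 0 were called by edgeR and 4 had an unadjusted p under 0.05 (10.9% of all genes), with a median of 0.30. DESeq2 called 1 higher and 1 lower, beside 0.853% and 1.85% of all genes with an adjusted p. Without the first control library edgeR called 4 higher and 1 lower, beside 9.25% and 6.8% of all genes, and without the second 1 and 1, beside 0.358% and 0.468%. The treated groups differed in 3 higher and 3 lower, beside 20.9% and 18.9% of all genes, and in dexamethasone + EPC-EVs against control 4 were higher and 3 lower, beside 19.1% and 17.2%, with a median of 0.22 in both. Not all of the 4 stayed called without the first dexamethasone + EPC-EVs library, where the share of all genes called higher also fell. Nos2, the inducible nitric oxide synthase, measured 422.5 and 229.3 CPM in control, 375.7 and 385.7 CPM in dexamethasone, and 1.43 and 2.35 CPM in dexamethasone + EPC-EVs, and fell by 7.69 ± 0.219 between the treated groups (adjusted p = 6.33e-09). Cat, catalase, fell by 1.67 ± 0.171 (adjusted p = 2.47e-05). Cyc1, cytochrome c1 of the respiratory chain, rose by 2.23 ± 0.254 (adjusted p = 5.21e-05) and Cyp51, the sterol demethylase, by 1.83 ± 0.168 (adjusted p = 1.22e-05). Ptgs2, cyclooxygenase 2, fell in dexamethasone + EPC-EVs against control by 0.80 ± 0.222 (adjusted p = 0.0232). This call was lost without the second dexamethasone + EPC-EVs library (-0.54, adjusted p = 0.246), and the value turned to 0.16 with the GC and length trend taken out.

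The genes whose pattern was most like those of Hmox1 and Slc48a1 were ranked by Pearson's r of log2 CPM over the 6 libraries, among the 9215 genes that averaged 10 CPM or more, as a description with no test, since 6 libraries in 3 groups allow many close matches. For Hmox1 they were Med13l (0.992), Pola2 (0.986), Apba1 (0.981), Dcxr (0.971) and Tmem63b (0.970). Their ranges were narrower than that of Hmox1, which spanned 3.34-fold between libraries. Med13l, for example, measured 359.2 and 327.2 CPM in control, 390.0 and 387.3 CPM in dexamethasone, and 369.5 and 341.0 CPM in dexamethasone + EPC-EVs. For Slc48a1 they were Cotl1 (0.995), Prdx1 (0.992), Ncaph2 (0.991), Tubg1 (0.987) and Abhd5 (0.984). Prdx1, a peroxiredoxin, measured 165.5 and 149.1 CPM in control, 338.3 and 308.1 CPM in dexamethasone, and 334.9 and 292.2 CPM in dexamethasone + EPC-EVs, high in the same groups.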

How the data were processed

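RNA of MC3T3-E1 Subclone 14 cells was sequenced by the authors in 6 libraries, 2 for each of control, dexamethasone and dexamethasone + EPC-EVs, as the sample labels group them. The authors aligned the reads to GRCm38 with HISAT2, counted them on genes with HTSeq 0.6.1 and deposited the counts without normalization. The deposited FPKM equal counts divided by library total and gene length. For each of the 21686 genes they gave 1 length in all libraries, within 0.1%. The submitters' processing notes also name DESeq2 1.26.0. A transcript table, which covers part of the transcripts and none of the 9 genes, was not used.

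For each comparison, the quasi-likelihood test of edgeR 4.0.16 (R 4.3.3; TMM, filterByExpr, robust) was run on its 4 libraries, with Benjamini-Hochberg adjustment over every gene tested and calls at adjusted p under 0.05. CPM use TMM over 6 libraries, and each SD is over 2 libraries. FPKM serve to compare levels between genes. Total counts were 5146760 to 13182014 per library. A count of 0 allows up to 3 counts, for counting error only. Replicates differed beyond sampling noise (chi-square per degree of freedom 7.17 to 20.1 within groups). The fit was tested on simulated data. Gene positions and overlaps are from GENCODE vM21, and promoters from RefSeq (GRCm38.p6).

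The members and gene lists (heme synthesis, its mitochondrial support, transport, breakdown, the BACH1 and NRF2 axis, heme-containing enzymes and cell type markers) were chosen with earlier results of these data known. The text names the 9 genes, up to 5 called genes of each list with the largest fold change, the glucocorticoid response list, and the 5 genes most like Hmox1 and Slc48a1. Gclm, overlapping genes and single markers were named after their values were seen. The alternatives were edgeR's RLE and upper-quartile scaling, mitochondrially encoded genes left out, no filter, DESeq2 1.42.0, a single fit of all 6 libraries, a block for the replicate number, the removal of a loess trend (span 0.4) on GC content and gene length, the study's thresholds (unadjusted p under 0.05, log2 fold change beyond 1.5), and each library left out in turn.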

Additional observations from a re-analysis of the deposited data

How the results depend on the processing

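With 2 libraries per group, 1 library can decide a call. In dexamethasone against control, 7 genes were called, but 1 with mitochondrial genes left out, 248 with no filter, 130 with DESeq2, 182 by the study's thresholds and between 9 (without dexamethasone replicate 1) and 2200 (without control replicate 1) with 1 library left out. It was 113 without control replicate 2 and 17 without dexamethasone replicate 2. With the replicate number as a block it was 43. Among the heme genes, calls of Hmox1 and Slc48a1 are not counted here, as those 2 genes were chosen on these libraries. Over the 7 others the count was 0 in every setting tried but the fit without control replicate 1, where Blvrb was called. Same-numbered libraries shared only a number: their deviations correlated at 0.14, -0.00218 and 0.037 in the 3 comparisons (9223 genes). In the vesicle comparisons the block left 5366 and 4679 genes called. Among the 7 heme genes it added the call of Blvrb against control (-1.07, adjusted p = 0.0169).

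Between the treated groups 5397 genes were called, 1922 by the study's thresholds and 3250 (without dexamethasone replicate 2) to 4813 with 1 library left out. Of the 7 heme genes not chosen for a rise, 2 were called. The count was 4 with the GC and length trend removed (4241 of all genes were then called) and 3 with upper-quartile normalisation. By the study's thresholds Blvrb alone passed. Without the first or the second dexamethasone library the Bach1 call was lost, at -0.72 and -0.67. In dexamethasone + EPC-EVs against control, 4916 genes were called and 2793 by the study's thresholds. Of the 7 heme genes 1 was called, Blvra, which also passed the study's thresholds. Blvrb was added as lower under no filter, DESeq2, 1 fit of all 6 libraries, the block and trend removal. Without control replicate 2 the Blvra call was lost, at 1.42. The causes of these shifts were not tested.

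Of 322 values of single heme genes, 291 kept direction and side of the threshold. Of the rest, 5 lost a call, 10 gained one, 1 moved further than the spread and 15 changed sign. As these totals include threshold outcomes of Hmox1 and Slc48a1 in the vesicle comparisons, no count of calls is read from the totals. Trend removal turned Alas1 to -0.11 (dexamethasone against control) and -0.48 (dexamethasone + EPC-EVs against control), Slc48a1 to -0.52 (between the treated groups) and Hmox1 to -0.34 (dexamethasone + EPC-EVs against control). Alas1 between the treated groups became 0.03 with no filter and 0.01 with all 6 libraries, and Hmox2 in dexamethasone + EPC-EVs against control 0.03 and 0.00. With 1 library left out, Slc48a1 between the treated groups ranged from -0.08 to 0.23, Alas1 from -0.04 to 0.05, and in dexamethasone + EPC-EVs against control Hmox1 ranged from -0.14 to 0.70 and Hmox2 from -0.15 to 0.20. Leaving out control replicate 1 moved the median log2 fold change of all genes to 0.119 in that comparison, and no scaling moved it by over 0.1. Of 252 counts over gene lists, 208 stayed within 1.5 times. Depth limits Blvra most, with 14 counts in its lowest library.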
